A study of Mus musculus with 4 samples.

Results

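The accessory subunits of Polycomb repressive complex 1 (PRC1) were followed in cultured mouse neural progenitor cells depleted of Rybp. The set holds 10 genes chosen by name, of 13881 genes in the deposited table. Of these, 7 encode accessory factors of variant PRC1 (Bcor, Bcorl1, Kdm2b, L3mbtl2, Mga, E2f6 and Auts2) and 3 encode the Polyhomeotic subunits of canonical PRC1 (Phc1, Phc2 and Phc3). The cells came from the forebrain of C57bl/6 mice at embryonic day 14 and were expanded in medium with EGF and FGF-2. The 2 libraries of the shRybp group came from cells infected with a lentivirus carrying a short hairpin RNA against Rybp. The 2 control libraries are labelled ctrl, and what these cells received was not given in the sources used here. Both groups share the strain, the source tissue and the medium. Nothing in the labels tells whether replicates came from different cultures or mice, so a p-value here reflects library-to-library spread, which may be technical.

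PRC1 is a family of ubiquitin ligases that mark histone H2A and keep developmental genes silent. Each complex is built on RING1 or RNF2 (RING1B) with a PCGF protein. Canonical complexes add a CBX protein, which reads the H3K27 methylation laid down by PRC2, and a PHC protein, whose SAM domain can polymerise and bring distant sites together. Variant complexes carry RYBP or its paralogue YAF2 instead and reach chromatin through accessory factors. Among these, KDM2B binds unmethylated CpG islands, MGA and E2F6 bind DNA sequence motifs, and AUTS2 has been described in neurons as part of a complex linked to transcription.

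Libraries held between 14355308 and 17598873 counts. In this bulk measurement, fewer cells of a type and less RNA per cell cannot be told apart. Rybp itself stood at 4.43 and 3.95 FPKM (the authors' expression unit, which corrects for the length of a gene and the depth of a library) in control replicates 1 and 2 and at 3.01 and 2.66 FPKM in shRybp replicates 1 and 2, and fell by 34.2% in the fit (edgeR adjusted p = 0.0017, log2 fold change of shRybp over control -0.60, SE 0.12). For comparison with the marker counts that follow, 16.3% of all genes tested rose and 16.7% fell. Of the 10 neural progenitor markers listed, all were in the table, and of 9 tested 2 rose and 5 fell. Of 9 astrocyte markers tested 9 fell, with a summed level of 618 to 634 FPKM in control and 249 to 268 in shRybp. Only 2 of 10 microglial markers were in the table, at a summed level of no more than 0.97 FPKM in any library. Of 9 oligodendrocyte lineage markers tested 4 fell and 0 rose, and of 7 neuron markers 3 fell and 2 rose. Among the 3 neuron markers that fell, Dcx and Snap25 were tested only because of their higher control values. Their shRybp means, 0.76 and 0.98 FPKM, lay under 1 FPKM, the mean over the 4 libraries required for testing. Those calls are set apart, which leaves Mapt (mean 17.7 FPKM for control, 8.78 for shRybp). Of 10 endothelial and mural markers and 10 meningeal fibroblast markers, 1 each could be tested, Acta2 and Foxc1, and both rose.

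All 10 subunit genes were in the table and all 10 passed the filter of a mean of at least 1 FPKM over the 4 libraries. In shRybp 5 rose (Bcor, L3mbtl2, Kdm2b, Auts2 and Phc2), 0 fell and 5 did not pass the test; no subunit was lower at an unadjusted p under 0.05, and DESeq2 and limma also gave 0 that fell. A gene was called where its edgeR adjusted p over all 12062 genes tested was under 0.05, and 33.0% of those genes were called, 16.3% as risen and 16.7% as fallen. Auts2 passed the filter only through shRybp, where it was higher, so its call is set apart: of the other 9 subunits 4 rose. The median log2 fold change of the 10 was 0.18, and 0.11 over the 9 without Auts2 (a value added after seeing the data), against 0.0033 over all genes tested. The rises were small, from 19.4% for Phc2 to 30.03% for Bcor. Without shRybp replicate 2 the number that rose was 2 (Bcor and L3mbtl2), and over all genes tested it was 1296 where the 4 libraries gave 1970.

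**Figure D1:**
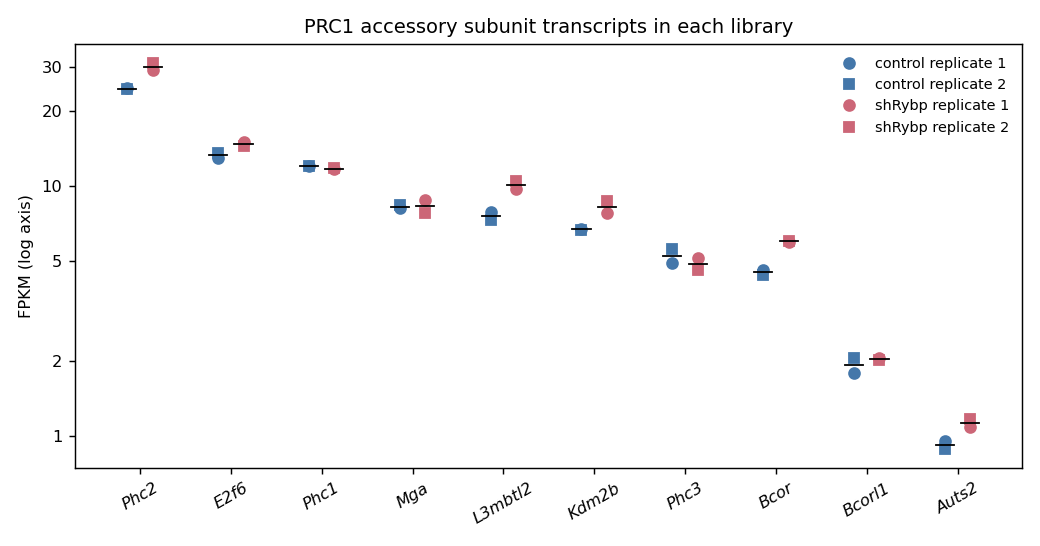
FPKM of each accessory subunit transcript (vertical log axis) in every library, with genes ordered by their control mean; circles are replicate 1, squares replicate 2, and bars the mean of a group. Phc2 is the most abundant and Auts2 the least. The pairs of Bcor, L3mbtl2, Kdm2b, Phc2, E2f6 and Auts2 values in shRybp lie above both controls. Of all genes tested, 38.5% share this ordering.

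In control cells the transcripts spanned a wide range of FPKM. Phc2 was the highest at 24.6 ± 0.15 FPKM (SD, n = 2), above 84.6% of the genes tested in its mean over the 4 libraries. E2f6 (13.3 ± 0.37) and Phc1 (12.1 ± 0.05) followed, then Mga (8.27 ± 0.17), L3mbtl2 (7.62 ± 0.37), Kdm2b (6.72 ± 0.04), Phc3 (5.27 ± 0.50) and Bcor (4.51 ± 0.15). Bcorl1 (1.91 ± 0.19) and Auts2 (0.92 ± 0.04) were the lowest. No neighbours in this order overlapped in the control libraries. The order changed in shRybp at 2 places: L3mbtl2, at 10.1 ± 0.52 FPKM, stood above Mga at 8.30 ± 0.67 in both libraries, and Bcor, at 6.02 ± 0.04, stood above Phc3 at 4.88 ± 0.38. In shRybp the values of Mga and of Kdm2b (8.28 ± 0.64) overlapped. Levels of genes with several isoforms rest on the transcript length the authors used, which was not given in the sources used here.

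KDM2B and BCOR belong to the variant complex built on PCGF1. Kdm2b encodes the CxxC zinc finger protein that brings this complex to CpG islands, and Bcor encodes the corepressor that joins it to PCGF1. Both rose. Bcor (ENSMUSG00000040363, mm10 chromosome X, 12036740 to 12160355, minus strand) had 4.62 and 4.41 FPKM in control replicates 1 and 2 and 5.99 and 6.05 in shRybp replicates 1 and 2, from 706, 610, 747 and 861 counts. Both shRybp libraries were above both controls, an ordering that 38.5% of the genes tested share. The log2 change was 0.38 (SE 0.08, 95% interval 0.20 to 0.56, edgeR adjusted p = 0.0040), or a rise of 30.03%, and it stayed past the threshold in all 11 alternative analyses.

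Kdm2b (ENSMUSG00000029475, mm10 chromosome 5, 122870665 to 122989823, minus strand) had 6.75 and 6.69 FPKM in the controls and 7.82 and 8.74 in shRybp, from 1294, 1162, 1223 and 1560 counts. The controls nearly coincided, while the shRybp libraries were spread and both higher, an ordering that 38.5% of the genes tested share. The log2 change was 0.27 (SE 0.07, 95% interval 0.10 to 0.43, edgeR adjusted p = 0.016), and without shRybp replicate 2 it was 0.19 with an adjusted p of 0.19. Exons of Kdm2b share bases with 2 genes on the opposite strand, and whether the counting used strand was not given in the sources used here. Rnf34, a ubiquitin ligase gene that covers 5.77% of the exon bases of Kdm2b, fell (log2 change -0.44, edgeR adjusted p = 0.0015), and the antisense gene A930024E05Rik, which covers 1.83%, rose (0.60, edgeR adjusted p = 0.0024). Their part in the Kdm2b value was not tested.

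Bcorl1 (ENSMUSG00000036959, mm10 chromosome X, 48341358 to 48408049, plus strand), the paralogue that can stand in for BCOR, had 1.78 and 2.05 FPKM in the controls and 2.04 and 2.01 in shRybp, from 250 to 281 counts per library. The groups overlapped, and the transcript missed the threshold (log2 change 0.05 with a 95% interval of -0.19 to 0.29, edgeR adjusted p = 0.78). Bcor made up 70.2% ± 2.8 of the summed FPKM of this pair in control and 74.8% ± 0.33 in shRybp (SD, n = 2). Kdm2b took 39.8% and 36.0% of its sum with the paralogue Kdm2a in the controls and 40.6% and 41.8% in shRybp. For both shares the groups did not overlap, and an exact two-sided permutation test of 2 libraries against 2 cannot go below its value here, p = 0.333. Among single genes tested, 38.5% had both shRybp values above both controls and 29.0% below. How often shares of other gene pairs separate was not tested. Bcor and Kdm2b were already called as risen, so their shares are not separate evidence. Kdm2a, which encodes the other CxxC demethylase of this pair, missed the threshold (log2 change 0.06, edgeR adjusted p = 0.59). Of all genes tested, 16.3% rose. Of 3 other genes of the PCGF1 complex tested, 1 rose and 0 fell: Usp7, a deubiquitinase gene, with a log2 change of 0.20 (edgeR adjusted p = 0.024). Pcgf1 itself had a log2 change of -0.03 (edgeR adjusted p = 0.91), and the SCF adaptor gene Skp1a 0.01 (edgeR adjusted p = 0.92).

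L3MBTL2, MGA and E2F6 belong to the complex built on PCGF6, which is known for silencing germline genes outside the germline. L3mbtl2 encodes an MBT domain protein of this complex that compacts chromatin. It rose, while the transcripts of both DNA-binding members did not pass the test. L3mbtl2 (ENSMUSG00000022394, mm10 chromosome 15, 81663889 to 81688315, plus strand) had 7.88 and 7.35 FPKM in the controls and 9.73 and 10.5 in shRybp, from 826, 698, 832 and 1022 counts. Both shRybp values were above both controls, as for 38.5% of the genes tested. The log2 change was 0.37 (SE 0.08, 95% interval 0.19 to 0.55, edgeR adjusted p = 0.0047), or a rise of 29.3%, and it too stayed past the threshold in all 11 alternatives. Chadl on the opposite strand shares 17.2% of the exon bases of L3mbtl2 and held 164 counts over the 4 libraries. Its part in the L3mbtl2 value was not tested.

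Mga encodes a scaffold with a T-box and a second DNA-binding domain that pairs with MAX. Mga (ENSMUSG00000033943, mm10 chromosome 2, 119897228 to 119969581, plus strand) had 8.15 and 8.39 FPKM in the controls and 8.78 and 7.83 in shRybp, from 1936 to 2204 counts per library, and the 2 shRybp values enclosed both controls. The log2 change was -0.03 (95% interval -0.18 to 0.12, edgeR adjusted p = 0.77). Its sign depended on scaling, with 0.0047 under library totals without TMM. The ratio of L3mbtl2 to Mga FPKM was 0.97 and 0.88 in the controls and 1.11 and 1.34 in shRybp, again without overlap (exact permutation p = 0.333, the smallest that 2 against 2 can give). L3mbtl2 was already called as risen, so this ratio is not separate evidence. How often such ratios separate was not tested.

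E2f6 encodes a repressive E2F protein that lacks a transactivation domain. E2f6 (ENSMUSG00000057469, mm10 chromosome 12, 16810963 to 16839742, plus strand) had 13.01 and 13.53 FPKM in the controls and 14.98 and 14.42 in shRybp, from 1220 to 1342 counts. Both shRybp values were above the controls, yet the transcript missed the threshold (log2 change 0.11 with a 95% interval of -0.04 to 0.26, edgeR adjusted p = 0.24). Separation of the groups in that direction is common here, at 38.5% of the genes tested. Other E2F genes did pass: of the 10 tested paralogues of the subunits, 4 rose and 0 fell, where 16.3% of all genes tested rose. All 4 were E2F genes. The activators E2f1 (log2 change 0.43, edgeR adjusted p = 0.0022) and E2f2 (0.68, edgeR adjusted p = 0.00028) rose, as did E2f4 (0.39) and E2f8 (0.31). The remaining tested E2F genes were E2f3 (0.07), E2f5 (-0.20) and E2f7 (-0.02). The ratio of E2f6 to E2f1 FPKM was 1.93 and 1.90 in the controls and 1.55 and 1.52 in shRybp, without overlap (exact permutation p = 0.333). Since E2f1 was already called as risen, this ratio is not separate evidence, and how often such ratios separate was not tested. Of the MBT paralogues, L3mbtl3 had a log2 change of 0.06 (edgeR adjusted p = 0.65) and Sfmbt1 of 0.24 (edgeR adjusted p = 0.053).

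Beside the 16.3% of all genes tested that rose, the PCGF6 complex was read in the same way. Of 9 other genes of the PCGF6 complex, 3 rose and 0 fell, with a median log2 fold change of 0.16. These were Wdr5, a WD repeat protein gene shared with histone methyltransferase complexes (0.30, edgeR adjusted p = 0.0046), the deacetylase gene Hdac1 (0.25, edgeR adjusted p = 0.011) and the heterochromatin protein gene Cbx1 (0.25, edgeR adjusted p = 0.014). Pcgf6 (0.13) and Max (0.16) did not pass. Of 22 germline genes that this complex is known to silence in other cells, 4 were in the table and 3 could be tested, of which 0 passed in edgeR, 1 had an unadjusted p under 0.05 (Zcwpw1, lower) and 0 passed in DESeq2. They were Tdrkh (0.04, adjusted p = 0.68), Zcwpw1 (-0.20, adjusted p = 0.099) and Stag3 (0.19, adjusted p = 0.39). Smc1b was under the filter. The other 18 were not in the table, where every gene has at least 40 counts over the 4 libraries, and could not be tested.

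Because MGA with MAX binds the E-box CACGTG, E2F6 binds E2F sites and KDM2B binds CpG, the sequence just upstream of the subunit genes was read for the same letters. RefSeq promoter windows (GRCm38.p6, 250 bases before to 50 after a start) were found for 9 of the 10 genes, 15 windows in all. CACGTG, which reads the same on both strands, was present in 3 of the 15, 1 each for Phc2, Phc3 and Bcorl1, against 10.2% of the 11321 windows of tested genes and 7.15% of all 32851 windows. The E2F letters TTCCCGC and the T-box letters AGGTGTGA, searched on both strands, were in none of the 15. They were in 8.81% and 0.66% of the windows of tested genes and in 4.60% and 1.28% of all windows. The E-box stretches are shown with the E-box in capitals, since Phc2 rose while Phc3 and Bcorl1 did not pass the test.
Phc2: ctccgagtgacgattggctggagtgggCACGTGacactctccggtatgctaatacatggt
Phc3: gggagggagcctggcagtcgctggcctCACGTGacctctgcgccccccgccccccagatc
Bcorl1: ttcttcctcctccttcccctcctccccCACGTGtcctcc
They lie at chr4:128654618-128654677 (plus strand), chr3:30969465-30969524 (minus strand) and chrX:48341319-48341357 (plus strand), with the first base of the E-box 57, 82 and 12 bases before the start. A match is a description of letters and not a measured binding site.

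The next set shows the 150 bases before the start of the 2 genes with the largest rises and, for contrast, of Mga, with each CpG in capitals.
Bcor: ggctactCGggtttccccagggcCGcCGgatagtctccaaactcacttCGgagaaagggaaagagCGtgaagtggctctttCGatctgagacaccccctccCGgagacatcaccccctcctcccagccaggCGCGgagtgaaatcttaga
L3mbtl2: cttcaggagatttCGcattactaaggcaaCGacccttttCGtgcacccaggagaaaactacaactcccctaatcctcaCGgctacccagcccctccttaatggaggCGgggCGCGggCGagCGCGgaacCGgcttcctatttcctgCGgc
Mga: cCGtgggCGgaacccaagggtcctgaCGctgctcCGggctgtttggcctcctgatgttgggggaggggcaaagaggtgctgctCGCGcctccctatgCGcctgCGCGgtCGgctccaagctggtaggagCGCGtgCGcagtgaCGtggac
These lie at chrX:12160356-12160505 (minus strand), chr15:81663739-81663888 (plus strand) and chr2:119897078-119897227 (plus strand). The full windows held 21 CpG for Bcor, 17 for L3mbtl2 and 24 for Mga, where the median window of a tested gene held 21 (quartiles 13 and 30). Among all 15 windows the count ran from 2 at the second start of Phc2 to 49 at a start of Kdm2b, and the gene with the lowest count among those with a single window was Phc1, with 9.

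Auts2, a gene of neurodevelopment whose protein joins PCGF3 or PCGF5 complexes, was the least abundant subunit transcript. Auts2 (ENSMUSG00000029673, mm10 chromosome 5, 131437333 to 132543344, minus strand) had 0.95 and 0.89 FPKM in the controls and 1.08 and 1.17 in shRybp, from 383, 325, 357 and 441 counts. The groups did not overlap, with shRybp above, as for 38.5% of the genes tested. The log2 change was 0.26 (SE 0.09, 95% interval 0.06 to 0.46), and the edgeR adjusted p, 0.049, was at the edge of the threshold. With no filter on low values it was also 0.26 (edgeR adjusted p = 0.046), but 7 of 11 alternatives ended the call, among them DESeq2 (adjusted p = 0.23) and leaving out any 1 of the 4 libraries (edgeR adjusted p from 0.053 to 0.29). Of 8 other genes of these complexes 1 rose and 2 fell, where 16.3% of all genes tested rose and 16.7% fell. Pcgf3 (-0.30, edgeR adjusted p = 0.0053) and the casein kinase 2 catalytic gene Csnk2a1 (-0.20, edgeR adjusted p = 0.020) fell, and Csnk2b, which encodes the regulatory subunit of that kinase, rose (0.26, edgeR adjusted p = 0.0081). Fbrs (0.08) and Fbrsl1 (-0.02), which encode the homologues of AUTS2, did not pass, nor did Pcgf5 (0.07).

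**Figure D2:**
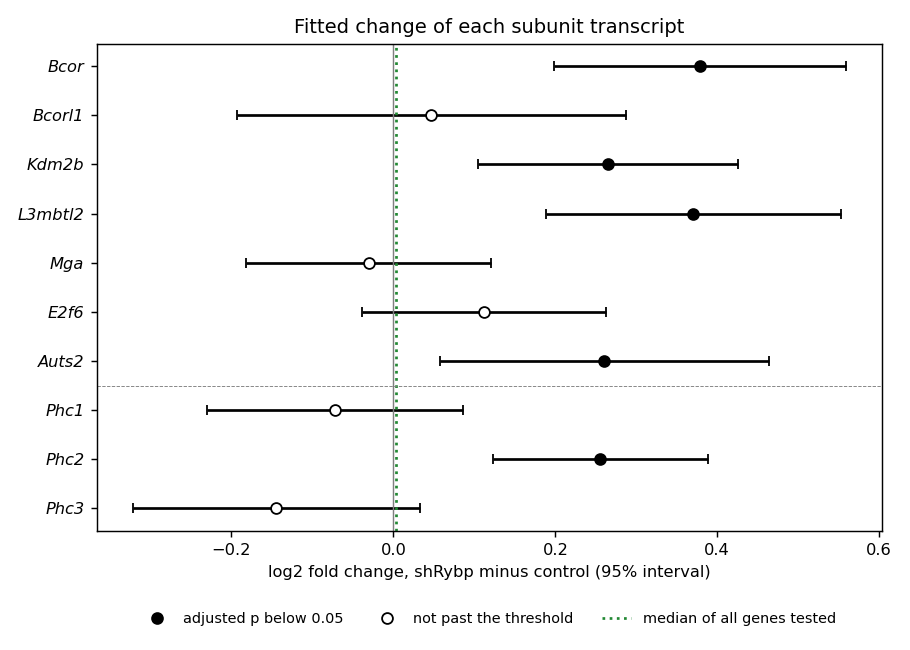
Fitted log2 fold change (shRybp minus control, horizontal axis) of each subunit transcript with its 95% interval; filled points passed the edgeR test, the dashed line parts variant from Polyhomeotic subunits, and the dotted line is the median of all genes tested. Bcor (0.38) and L3mbtl2 (0.37) lie farthest right, and Phc3 (-0.14) farthest left.

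Of the 3 Polyhomeotic genes, 1 rose and 2 did not pass the test, where 16.3% of all genes tested rose. Phc2 (ENSMUSG00000028796, mm10 chromosome 4, 128654702 to 128752881, plus strand) had 24.7 and 24.5 FPKM in the controls and 29.1 and 31.1 in shRybp, from 3077, 2764, 2960 and 3608 counts. Both shRybp libraries were higher than both controls, as for 38.5% of the genes tested. It rose, with a log2 change of 0.26 (SE 0.06, 95% interval 0.12 to 0.39, edgeR adjusted p = 0.0066). Without shRybp replicate 2 the value was 0.21 with an edgeR adjusted p of 0.060.

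Phc1 (ENSMUSG00000040669, mm10 chromosome 6, 122317731 to 122340561, minus strand) had 12.03 and 12.09 FPKM in the controls and 11.68 and 11.83 in shRybp, from 890 to 1123 counts. The shRybp values were below the controls by a narrow margin, an ordering that 29.0% of the genes tested share. It missed the threshold (log2 change -0.07 with a 95% interval of -0.23 to 0.09, edgeR adjusted p = 0.48). Phc3 (ENSMUSG00000037652, mm10 chromosome 3, 30899371 to 30969415, minus strand) had 4.91 and 5.62 FPKM in the controls and 5.15 and 4.62 in shRybp, from 1296 to 1570 counts. Its groups overlapped, and it did not pass either (log2 change -0.14 with a 95% interval of -0.32 to 0.03, edgeR adjusted p = 0.20). Its value was -0.23 without control replicate 1, -0.06 without control replicate 2, -0.23 without shRybp replicate 1 and -0.06 without shRybp replicate 2. The interval of Phc2 lay wholly above those of Phc1 and Phc3.

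Phc2 provided most of the Polyhomeotic transcript in every library. Its share of the summed Phc FPKM was 59.3% and 58.0% in the controls and 63.4% and 65.4% in shRybp. The share of Phc1 was 28.9% and 28.6% against 25.4% and 24.9%, and that of Phc3 11.8% and 13.3% against 11.2% and 9.71%. The groups did not overlap for any of the 3 shares, which are bound to one another because they sum to the whole, and each exact permutation p was 0.333. Phc2 was already called as risen, so the shares are not separate evidence. Among single genes tested, 38.5% had both shRybp values above both controls and 29.0% below, and how often such shares separate was not tested. The summed Phc level was 41.6 and 42.2 FPKM in the controls and 46.0 and 47.5 in shRybp.

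**Figure D3:**
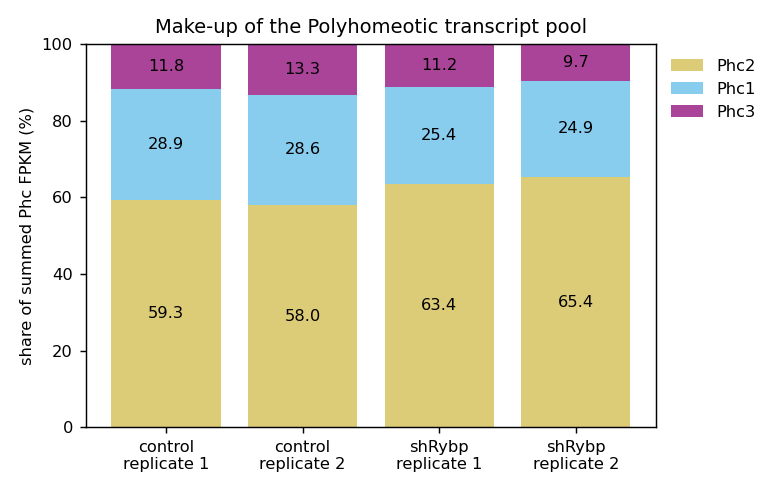
Share of the summed FPKM of Phc1, Phc2 and Phc3 (vertical axis, percent) in each of the 4 libraries; the number in each block is that share. Phc2 goes from 59.3% and 58.0% in the controls to 63.4% and 65.4% in shRybp.

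Of 6 other genes listed with canonical PRC1 and tested, 2 rose and 0 fell, where 16.3% of all genes tested rose. Cbx2, which encodes a chromodomain subunit with a compaction region, rose from 4.83 ± 0.09 to 6.23 ± 0.07 FPKM (log2 change 0.33, edgeR adjusted p = 0.013). Scml4, a gene of the Sex comb on midleg family, rose from 1.08 ± 0.07 to 2.08 ± 0.10 FPKM (0.91, edgeR adjusted p = 0.00019). Cbx6 (-0.06), Cbx8 (0.11), Scmh1 (-0.07) and Scml2 (0.22) did not pass, and Cbx7 was under the filter. Of the 8 catalytic and PCGF genes to which the accessory subunits attach, 0 rose and 1 fell, Pcgf3, which also counts among the partners of AUTS2 above. Pcgf2, a PCGF protein gene of canonical PRC1, had the largest value among those that did not pass (log2 change -0.42 with a 95% interval of -0.83 to -0.01, edgeR adjusted p = 0.10), from 69 counts in shRybp replicate 1 and 116 in control replicate 1. The median log2 fold change was 0.02 for these 8 genes, 0.26 for the 7 variant accessory genes (0.19 for the 6 without Auts2) and -0.07 for the 3 Polyhomeotic genes. No test of the difference between these lists was made.

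**Figure D4:**
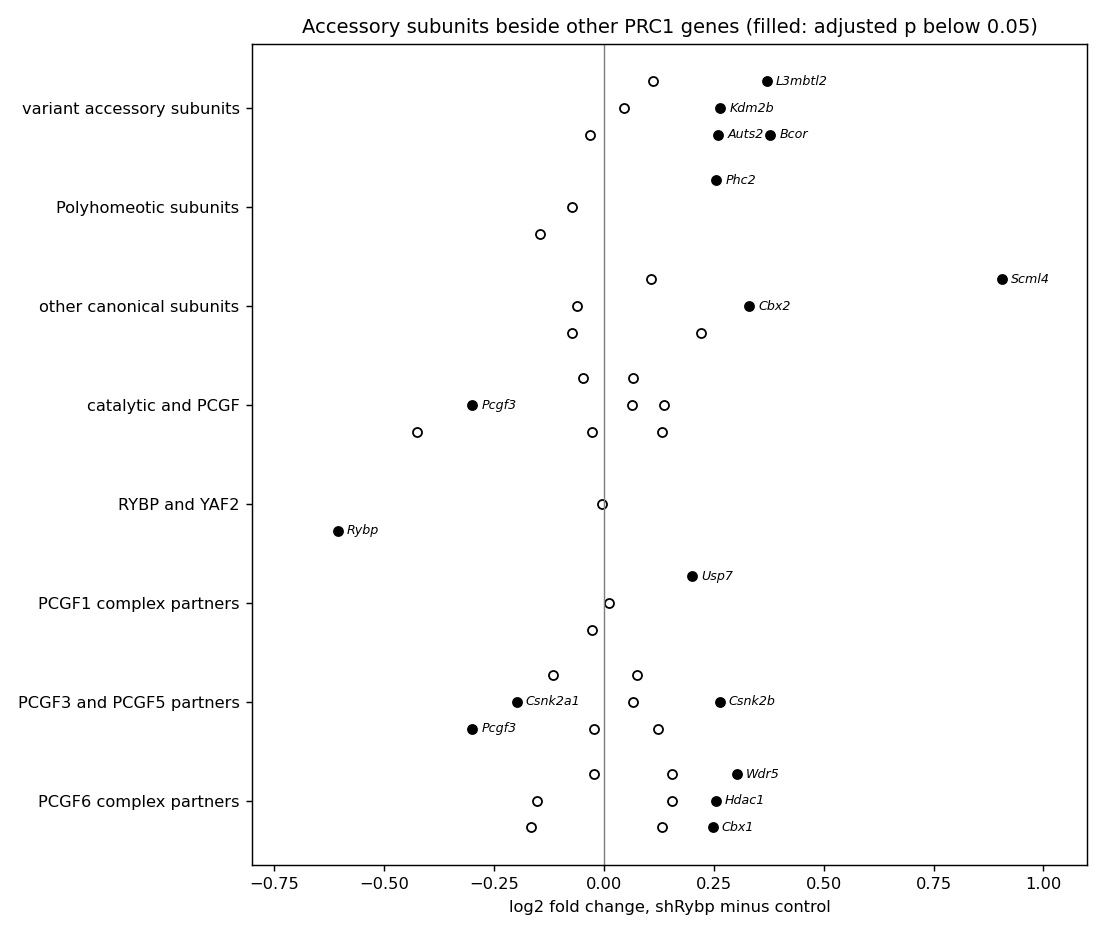
Log2 fold change (shRybp minus control, horizontal axis) of the accessory subunits and of other PRC1 genes in 8 lists; each point is a gene, filled where the edgeR adjusted p was under 0.05, and the named genes are the filled ones. The accessory subunits that passed lie to the right of 0, and among the catalytic and PCGF genes only Pcgf3 is filled; vertical offsets within a list carry no value.

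Genes of the cell division cycle moved in the same libraries as the subunits that rose. Of 30 S phase genes 26 rose and 0 fell, with a summed level of 819 to 862 FPKM in control and 1177 to 1210 in shRybp. Among 25 genes of mitosis and G2 the counts were 18 and 0, with a summed level of 1034 to 1073 FPKM against 1326 to 1338. Across all genes tested, 16.3% rose and 16.7% fell. The fall in astrocyte markers given above was seen in the same libraries. The part of either in the subunit values was not tested.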

How the data were processed

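The authors deposited 1 table with raw counts per gene and library, whole numbers they did not normalize, beside FPKM values, which they scaled by gene length and library size per the file headers. Coordinates are in mm10, the build in the submitters' processing notes. How reads were aligned and counted, and whether by strand, was not given in the sources used here. Every gene in the table has at least 40 counts over the 4 libraries. Groups were compared with edgeR 4.0.16 (TMM, quasi-likelihood fit, two-sided) under R 4.3.3. The fit used counts for the 12062 genes whose mean reached 1 FPKM, with Benjamini-Hochberg adjustment over all of them and a threshold of 0.05. Standard errors are the absolute log2 fold change over the square root of the F statistic; the 95% intervals use the t distribution. On simulated data for this comparison over 12062 genes, the fit recovered 52 of 67 genes given a 1.5-fold change, and no change under that size was simulated, although the subunits that passed changed by less. Alternatives were library totals, RLE scaling, DESeq2 1.42.0, no filter, limma 3.58.1 on log2(FPKM + 1) and log2(FPKM + 0.1), a replicate block and leaving out each library. Strands and exons came from GENCODE M21. The members and the gene lists were chosen with earlier results of these data known. The text names all 10 subunits, Rybp, the tested paralogues, and the listed partners that passed; other partners named with values were chosen after their values were seen. 1 gene of the lists is not reported here.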

Additional observations from a re-analysis of the deposited data

How the results depend on the processing

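Of the 10 subunits, Bcor, L3mbtl2, E2f6, Phc1 and Phc3 kept their direction and their side of the threshold in all 11 alternatives. Mga, which did not pass in any of them, changed sign under library totals without TMM (log2 fold change 0.0047), limma on log2(FPKM + 1) (0.0033) and limma on log2(FPKM + 0.1) (0.0035). Auts2 lost its call with DESeq2 (0.26), limma on log2(FPKM + 1) (0.15) and limma on log2(FPKM + 0.1) (0.27). Leaving out 1 library at a time gave 0.20 to 0.32 for Auts2, 0.19 to 0.34 for Kdm2b, 0.21 to 0.30 for Phc2, -0.23 to -0.06 for Phc3 (edgeR adjusted p from 0.060 to 0.70), -0.049 to 0.14 for Bcorl1, which was below 0 without control replicate 1, and -0.12 to 0.053 for Mga, which was above 0 without shRybp replicate 2. It gave 2 to 4 subunits that rose, and 1296 to 1640 genes that rose in all. The causes were not tested, beyond the smaller number of libraries. With a replicate block 5 subunits rose and 0 fell, and 2676 genes rose and 2652 fell; the correlation of same-numbered libraries' deviations from their group means was 0.10 over 12062 genes, and the labels do not say that numbers pair libraries. The median over all genes tested moved by less than 0.1 under every scaling tried. With 250 to 281 counts per library, Bcorl1 had the widest interval of the 10 subunits, 0.24 to either side.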

Other observations

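MAX, the partner of MGA, is shared by a network of E-box binding proteins. The transcripts of a wider list of this network, not all of whose proteins pair with MAX, moved in both directions. Of 10 genes tested besides Max and Mga, 3 rose and 4 fell, where 16.3% of all genes tested rose and 16.7% fell. Those that fell were the MAX-binding repressor genes Mxi1 (log2 fold change -0.78), Mxd1 (-0.79) and Mxd4 (-0.40), and Mycl (-0.52), a MYC family gene. Mxi1 had 9.85 and 10.2 FPKM in the controls and 5.68 and 6.26 in shRybp. Both shRybp values lay below both controls, an ordering that 29.0% of the genes tested share. Those that rose were Myc (0.18, edgeR adjusted p = 0.043), Mxd3 (0.35), also a MAX-binding repressor gene, and Mlxip (0.30). Mnt, another MAX-binding repressor gene, had a log2 fold change of 0.09 (edgeR adjusted p = 0.52) and Mycn of 0.23 (edgeR adjusted p = 0.37).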
